A study of Rattus norvegicus with 3 samples.

Results

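The 7 genes described here encode the receptors of the insulin-like growth factors (Igf1r and Igf2r), secreted proteins that bind these growth factors (Igfbp2, Igfbp3, Igfbp4 and Igfbp5) and a related binding protein-like gene (Igfbpl1). They were matched by symbol, with no threshold on a measured value, among the 29772 genes listed in the deposited files, and all 7 were found. The data are single-cell RNA sequencing libraries of the cerebral cortex of wildtype rat embryos, with 1 library for each of the labels E14, E16 and E18. Cells were primary and fresh after papain dissociation, and the labels name no other treatment; the number of embryos behind each library, their strain and their sex are not stated in the sources used here. The protocol text also describes an expansion culture, oligo multiplexing and a sort for human cells. Primary rat tissue does not match that text, and it is unknown which steps were applied here. With 1 library for each label there is no replicate, so every interval below covers counting error only and no p-value is given.

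Insulin-like growth factors are secreted ligands that act through the receptor tyrosine kinase Igf1r, which signals to PI3 kinase, Akt and mTOR and supports proliferation, survival and growth of neural cells. Igf2r, the cation-independent mannose 6-phosphate receptor, carries Igf2 to lysosomes and also sorts lysosomal enzymes. The binding proteins hold the ligands outside the cell; they can lengthen the ligands' life, limit their access to Igf1r, or release them when proteases such as Pappa cut the binding protein. Radial glia are the stem cells of the embryonic cortex. They give rise to intermediate progenitors and to newborn excitatory neurons, which then mature in the cortical plate.

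Stretches of 250 bases before the annotated start are shown for the 4 members with the widest differences along the excitatory lineage, so that these regions can be set beside the values. They come from RefSeq on build GRCr8, whereas the deposited counts were made on mRatBN7.2 per the submitters' processing notes, and each is written 5′ to 3′ on the gene's own strand. Capitals mark matches to 4 short motifs searched on both strands: CATCTG (or CAGATG) and CAGCTG, E-boxes bound by basic helix-loop-helix factors; TGGGAA (or TTCCCA), the core of the site of the Notch effector Rbpj; and TATAAA (or TTTATA), the TATA box. No motif overlaps another in these stretches. Igfbpl1, chr5:64887462-64887711 on the minus strand, held TGGGAA with its first base 97 bases before the start.
Igfbpl1: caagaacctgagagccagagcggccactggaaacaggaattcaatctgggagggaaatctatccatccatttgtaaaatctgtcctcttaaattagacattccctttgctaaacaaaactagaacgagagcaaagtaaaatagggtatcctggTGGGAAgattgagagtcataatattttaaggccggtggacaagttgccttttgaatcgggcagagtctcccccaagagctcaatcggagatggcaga
Igfbp3, chr14:86277945-86278194 on the minus strand, held CAGATG with its first base 17 bases before the start.
Igfbp3: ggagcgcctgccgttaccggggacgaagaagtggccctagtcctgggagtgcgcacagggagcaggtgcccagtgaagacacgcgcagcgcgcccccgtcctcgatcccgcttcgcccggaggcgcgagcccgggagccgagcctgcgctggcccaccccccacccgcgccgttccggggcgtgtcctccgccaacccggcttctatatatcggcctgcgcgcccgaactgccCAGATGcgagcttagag
Igfbp4, chr10:84491221-84491470 on the plus strand, held CAGATG at 185 bases and TATAAA at 40 bases before the start.
Igfbp4: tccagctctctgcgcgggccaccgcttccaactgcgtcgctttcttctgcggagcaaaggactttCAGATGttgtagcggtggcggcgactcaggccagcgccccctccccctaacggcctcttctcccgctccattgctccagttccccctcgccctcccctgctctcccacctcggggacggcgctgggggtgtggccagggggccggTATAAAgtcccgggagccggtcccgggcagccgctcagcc
Igfbp5, chr9:81914188-81914437 on the minus strand, held none of the 4 motifs in these letters.
Igfbp5: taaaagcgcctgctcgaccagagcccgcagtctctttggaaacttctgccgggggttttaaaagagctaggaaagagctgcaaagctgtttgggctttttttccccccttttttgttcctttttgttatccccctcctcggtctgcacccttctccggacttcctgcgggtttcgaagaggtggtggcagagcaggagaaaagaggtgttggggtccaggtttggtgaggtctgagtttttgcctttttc
Of 27457 RefSeq promoters of the same length, 13.7% held CATCTG or CAGATG, 11.9% CAGCTG, 21.6% TGGGAA or TTCCCA and 13.1% TATAAA or TTTATA. Igfbp2 and Igfbp5 are neighbours on chromosome 9 in that annotation. The other members lie on chromosomes 1 (Igf1r and Igf2r), 5 (Igfbpl1), 10 (Igfbp4) and 14 (Igfbp3).

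The files hold 62740631, 80974234 and 73727823 UMIs for the libraries labelled E14, E16 and E18, a UMI (unique molecular identifier) being the tag of 1 captured RNA molecule. Of 7100, 6707 and 6937 barcodes, 4444, 5193 and 5690 had at least 1000 detected genes and at most 10% mitochondrial UMIs. After the highest doublet scores were removed, 4286, 4977 and 5431 cells were left, with medians of 10477 to 12264 UMIs; 7 or 8 barcodes were shared by each pair of libraries among them. Cells were clustered without the members and named from marker genes, so each class name below stands for cells with the markers of that type ("radial glia-like" and so on). Radial glia numbered 405, 3002 and 1796 in label order, intermediate progenitors 446, 441 and 1069, newborn excitatory neurons 932, 575 and 1394, and maturing excitatory neurons 2400, 0 and 742, while 4, 318 and 43 cells stayed unnamed. A further 131 excitatory neurons labelled E18, led by Pcp4 and Ppp1r14a, could not be placed as newborn or maturing and enter no ratio or order of classes. Stage genes in radial glia did not run in label order. The library labelled E16 had the highest level of all 4 early genes listed (Hmga2 at 11.8, 225 and 21.3 CPM in label order, where CPM is the count scaled to 1000000 UMIs), and the library labelled E14 had the highest level of all 4 late genes (Aldoc, a gene of maturing astroglia, at 735, 16.8 and 239.9 CPM). The labels are therefore used only as names, and no order in time is read from them.

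All 7 members were detected in every library. Igfbpl1 was highest in newborn neurons, Igfbp4 and Igfbp5 were higher in radial glia than in the neurons of the excitatory lineage, and Igfbp3 was higher in maturing than in newborn neurons. Among classes of at least 50 cells, Igfbp2 was highest in the epithelium of the choroid plexus and in the cortical hem, a signalling centre at the cortex's medial edge. The receptors Igf1r and Igf2r differed by less than 2-fold between the successive stages of the excitatory lineage. UMIs of a member were summed over the cells of a class in a library and divided by all UMIs of those cells, giving CPM with an exact Poisson 95% interval. These 3′ counts are not corrected for gene length, so levels are compared within a gene and never between genes. A difference is past 2-fold when the log2 ratio of CPM + 1 is at least 1 in size and the mean of its sides is at least 5 CPM. The same rule gives the background share printed beside the counts. A share "of all genes" is taken among the genes with that mean, 9303 to 10448 by comparison, and not among all 29772. Members are counted out of all 7, also where fewer reach that mean. Only classes with at least 50 cells in a library enter a ratio.

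**Figure D1:**
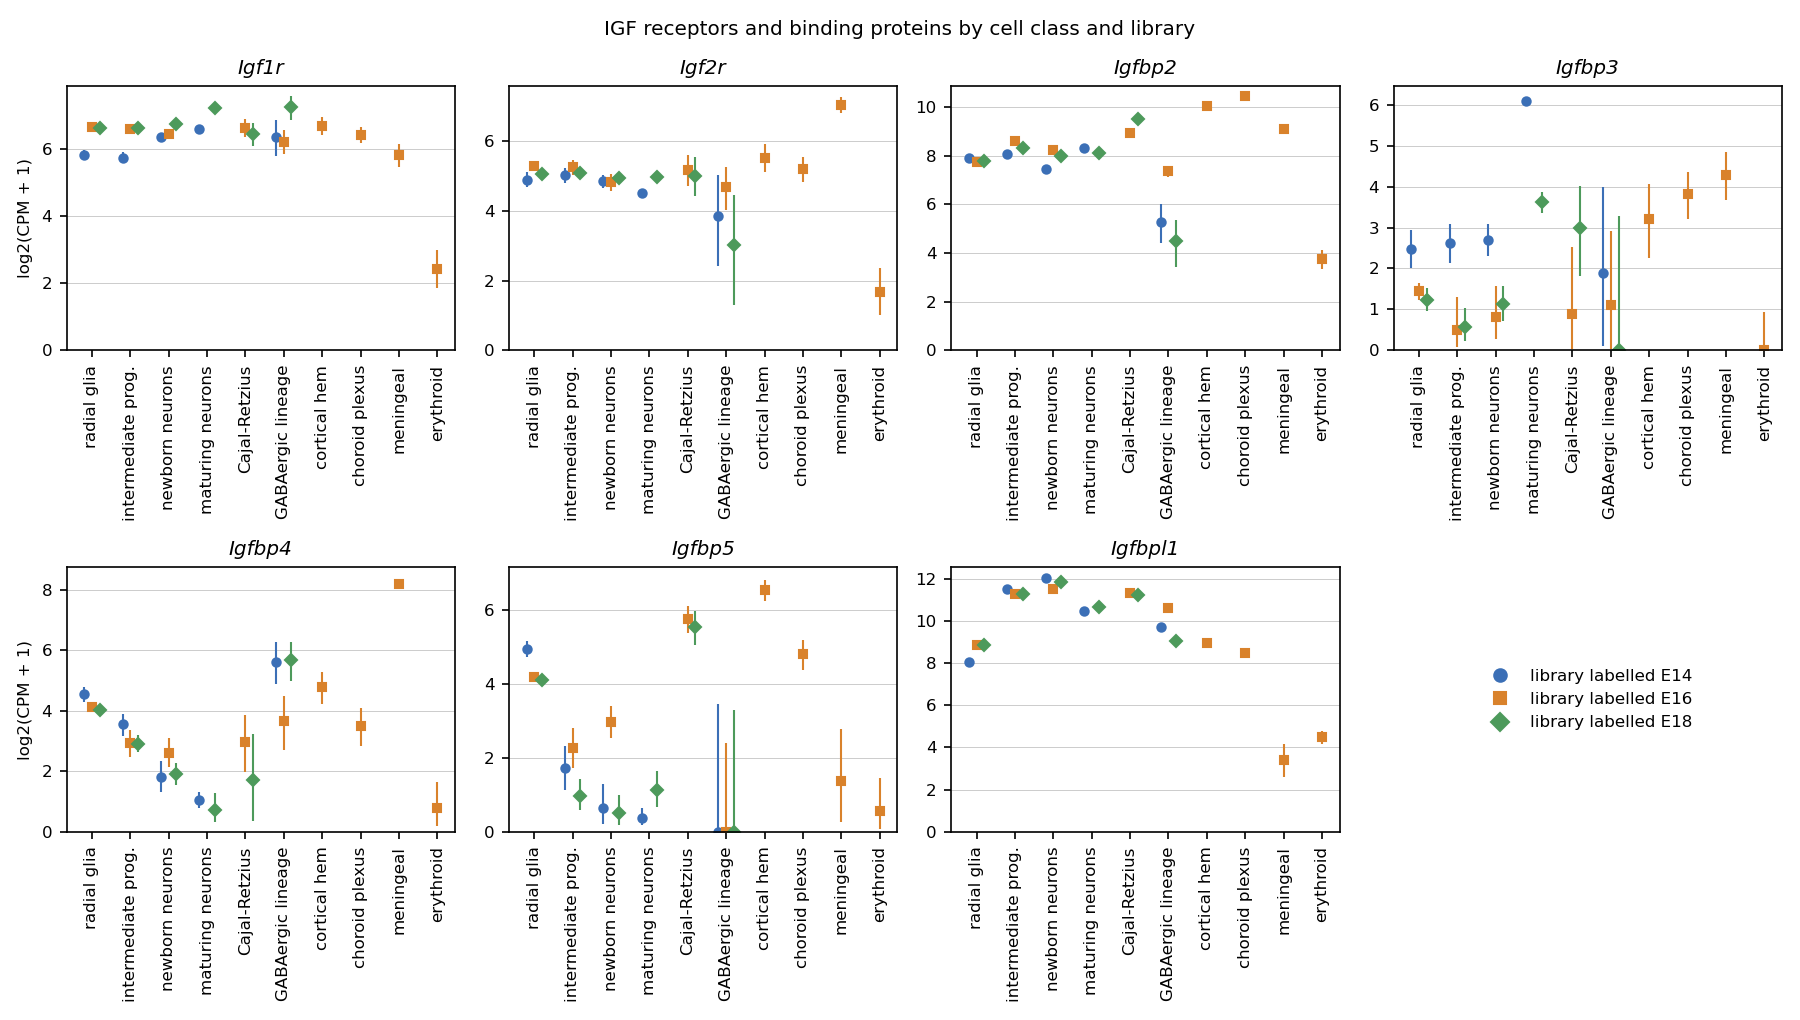
Levels of the 7 members as log2(CPM + 1) by cell class and library (colour), for named classes with at least 50 cells; 1 point is 1 class in 1 library. Igfbpl1 peaks in newborn neurons in all 3 libraries (2939 to 4241 CPM) and Igfbp3 in maturing neurons of the library labelled E14 (67.2 CPM), while Igf1r and Igf2r stay in a narrower band across the excitatory lineage.

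Igf1r, the receptor through which the growth factors signal, was present in every neural class. In radial glia it stood at 55.3 CPM (95% interval 49.4 to 61.6) in the library labelled E14, 100.3 CPM (97.4 to 103) in that labelled E16 and 96.6 CPM (92.8 to 100.5) in that labelled E18. Intermediate progenitors had 52.4, 95.4 and 96.5 CPM in label order and newborn neurons 81.4, 86.8 and 105 CPM; maturing neurons had 96.2 and 147 CPM in the libraries labelled E14 and E18. The library labelled E14 was lowest in radial glia and in intermediate progenitors, with intervals that did not overlap those of the others. Its distance from the library labelled E16 was just under 2-fold, a log2 ratio of 0.85 (0.69 to 1.01) in radial glia and 0.85 (0.64 to 1.07) in intermediate progenitors. Under the alternative settings the ratio in radial glia ran from 0.76 to 0.94 and that in intermediate progenitors from 0.76 to 1.21, past 2-fold with at least 2000 genes and at most 5% mitochondrial UMIs per cell. By the median over libraries of the classes in the order, Igf1r was highest in maturing neurons, followed by the cortical hem at 102 CPM and radial glia. These medians rest on 2, 1 and 3 libraries, and the order differed within libraries. The GABAergic lineage labelled E18 had 149 CPM (115 to 191), and newborn neurons were above radial glia in the libraries labelled E14 and E18. The 131 excitatory neurons labelled E18 that were left out of the order had 136 CPM (118 to 156), between the levels of maturing neurons in both libraries. From radial glia through intermediate progenitors, Cajal-Retzius cells (the early Reelin-secreting neurons of the cortical surface), newborn neurons, choroid plexus and the GABAergic lineage, the range of each class over libraries overlapped that of the next. Meningeal fibroblasts had 55.5 CPM and erythroid cells 4.40 CPM in the library labelled E16.

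Igf2r, which clears Igf2 from the cell surface, was nearly level along the excitatory lineage. Radial glia had 28.7, 38.3 and 32.4 CPM in label order, intermediate progenitors 31.5, 37.0 and 33.2 CPM, and newborn neurons 27.7, 27.1 and 29.5 CPM; maturing neurons had 21.6 and 30.5 CPM in the libraries labelled E14 and E18. The ranges of Cajal-Retzius cells, intermediate progenitors, radial glia, newborn and maturing neurons overlapped from each class to the next. Meningeal fibroblasts had the highest Igf2r level among classes of at least 50 cells, 131 CPM (112 to 153), a log2 ratio of 1.75 (1.51 to 1.98) to radial glia of the library labelled E16. Mural cells, the pericytes and smooth muscle of vessels, had 239 CPM (200.0 to 283) over the 38 cells of all libraries.

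Igfbp4 and Igfbp5, secreted binding proteins, followed radial glia rather than neurons in the excitatory lineage. For Igfbp4, radial glia labelled E14 had 22.3 CPM (18.7 to 26.5), those labelled E16 16.6 CPM (15.4 to 17.8) and those labelled E18 15.3 CPM (13.8 to 16.9). It had 10.7, 6.64 and 6.56 CPM in intermediate progenitors, 2.54, 5.15 and 2.77 CPM in newborn neurons, and 1.06 and 0.653 CPM in maturing neurons of the libraries labelled E14 and E18. The level was thus lower at each successive stage in each library, although the intervals of intermediate progenitors and newborn neurons overlapped in that labelled E16. The log2 ratio of newborn neurons to radial glia was -2.72 (-3.27 to -2.16), -1.52 (-2.01 to -1.04) and -2.11 (-2.51 to -1.71) in label order, past 2-fold in all 3 libraries. After 2000 UMIs were drawn from each cell, 4%, 3.02% and 3.26% of radial glia and 0.323%, 1.93% and 0.791% of newborn neurons held an Igfbp4 UMI. The corresponding shares were 31.9% of 94 endothelial, mural and microglial cells, where Igfbp4 is high (median 15544.5 UMIs), and 0 of 124 erythroid cells labelled E16 (median 32391 UMIs), which allows up to 2.93%; 9 erythroid cells were labelled E18 and none E14, too few to set a background for those libraries. In the library labelled E16 neither the share in newborn neurons nor that in radial glia (interval 2.43 to 3.70) lay clear of this limit, so shares at this depth do not separate either from background. The summed level there was 0.733 CPM (0.151 to 2.14, from 3 UMIs) in erythroid cells, and the intervals of newborn neurons (3.39 to 7.49) and radial glia lay above it.

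Between radial glia and newborn neurons, Igfbp5 was more sharply divided than Igfbp4 in the libraries labelled E14 and E18, but not in that labelled E16. Radial glia labelled E14 had 29.8 CPM (25.6 to 34.6), those labelled E16 17.2 CPM (16 to 18.4) and those labelled E18 16.2 CPM (14.7 to 17.9). Intermediate progenitors had 2.29, 3.82 and 0.971 CPM in label order, and newborn neurons 0.565, 6.87 and 0.420 CPM. Maturing neurons had 0.302 and 1.2 CPM in the libraries labelled E14 and E18. In newborn neurons of the library labelled E16 the summed Igfbp5 level was higher than in those of the others, and the interval (4.81 to 9.50 CPM) did not overlap those of the libraries labelled E14 (0.154 to 1.45) and E18 (0.136 to 0.979). After 2000 UMIs were drawn from each cell, 5%, 3.92% and 3.71% of radial glia and 0.215%, 1.23% and 0.0719% of newborn neurons held an Igfbp5 UMI in label order. None of 124 erythroid cells labelled E16 did, which allows up to 2.93%, and a share as low as that in newborn neurons of that library could not have exceeded this limit. The summed level in the erythroid cells was 0.488 CPM (0.0591 to 1.76, from 2 UMIs), and the interval of newborn neurons labelled E16 lay above it. The log2 ratio of newborn neurons to radial glia was -4.30 (-4.79 to -3.62), -1.21 (-1.65 to -0.78) and -3.60 (-3.95 to -3.10). Intermediate progenitors were already lower than radial glia by log2 ratios of -3.23, -1.91 and -3.13. In the GABAergic lineage no Igfbp5 UMI was found in the 57, 103 and 72 cells of the libraries labelled E14, E16 and E18; against a floor of 3 UMIs in each library, the level there was at least 3.70-fold, 4.92-fold and 2.28-fold lower than in radial glia. With no doublets removed, UMIs were found in the libraries labelled E16 and E18, and the log2 ratio to radial glia labelled E18 was -1.06. With at least 500 genes and at most 20% mitochondrial UMIs per cell, UMIs were found in the library labelled E16.

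With 10 CPM added in place of 1, all of these ratios shrank, and newborn neurons no longer differed 2-fold from radial glia for Igfbp4 in the libraries labelled E16 (-0.81) and E18 (-0.99) or for Igfbp5 in that labelled E16 (-0.69). With at least 2000 genes and at most 5% mitochondrial UMIs per cell, the Igfbp5 ratio labelled E16 was -2.55. In the library labelled E16, nearly all newborn neurons (573 of 575) came from a cluster of their own, led by Calb1, Calb2 and Ebf1, and those of the library labelled E14 (921 of 932) from another, led by Sstr2 and Unc5d.

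Igfbp3, the main carrier of these growth factors in blood, was the member that was higher past 2-fold in maturing than in newborn neurons. Newborn neurons labelled E14 had 5.51 CPM (3.92 to 7.53), those labelled E16 0.763 CPM (0.208 to 1.95) and those labelled E18 1.17 CPM (0.642 to 1.97). Maturing neurons had 67.2 CPM (64.4 to 70.0, from 2226 UMIs) in the library labelled E14 and 11.3 CPM (9.25 to 13.7, from 104 UMIs) in that labelled E18. The intervals of the classes were far apart in both libraries, with log2 ratios of 3.39 (2.99 to 3.8) and 2.50 (1.98 to 2.98). Radial glia (4.60, 1.71 and 1.35 CPM) and intermediate progenitors (5.16, 0.402 and 0.486 CPM) were as low as newborn neurons.

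Maturing neurons of the library labelled E18 were below those labelled E14 by a log2 ratio of -2.47 (-2.74 to -2.21) for Igfbp3. It was the only member of 7 past 2-fold in this comparison, in which 3.93% of all genes were. The cells came from different clusters: 1036, 735 and 611 of those labelled E14 from clusters 1, 9 and 13, and 443, 141 and 127 of those labelled E18 from clusters 17, 26 and 28. Cluster 9, led by genes such as Sybu, Cdh13 and Snap25, had 119.8 CPM of Igfbp3 (114 to 126). Cluster 13, with Tafa2 and Syt4 among its leading genes, had 57.9 CPM, and cluster 1 had 18.8 CPM. Among clusters labelled mostly E18, cluster 17 had 13.6 CPM, cluster 28 8.37 CPM and cluster 26 1.5 CPM. Clusters 9 and 13 thus stood above all others, while the intervals of cluster 1 (16.3 to 21.5) and cluster 17 (10.9 to 16.8) overlapped. Igfbpl1 took the opposite order within the library labelled E14, at 1004 CPM in cluster 9, 1226 CPM in cluster 13 and 2027 CPM in cluster 1. It did so in the library labelled E18 too, at 1327 CPM in cluster 17, 2022 CPM in cluster 28 and 2674 CPM in cluster 26.

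**Figure D2:**
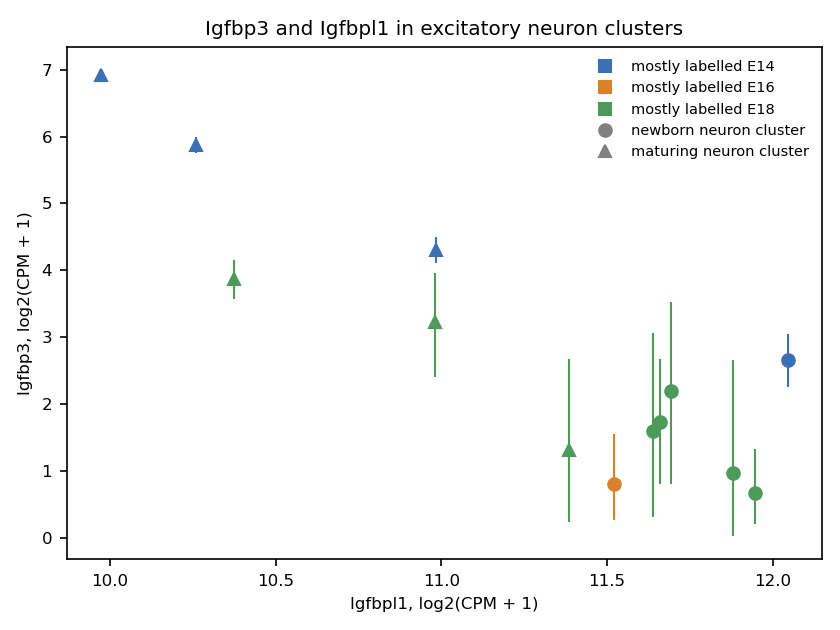
Igfbp3 against Igfbpl1, both as log2(CPM + 1), in each cluster of newborn (circles) and maturing (triangles) excitatory neurons with at least 50 cells; colour gives the library with most cells and bars are exact Poisson 95% intervals of Igfbp3. The maturing clusters of the library labelled E14 have the highest Igfbp3 (18.8 to 119.8 CPM), and newborn clusters the highest Igfbpl1 (2937 to 4226 CPM) with Igfbp3 at 0.589 to 5.33 CPM.

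After drawing 2000 UMIs per cell, 10.2% of maturing neurons labelled E14 (8.98 to 11.4) and 1.64% of those labelled E18 (0.850 to 2.85) held an Igfbp3 UMI; without drawing, the shares were 35.7% and 10.8% at medians of 13413 and 11554.5 UMIs. Newborn neurons gave 0.861%, 0.175% and 0.288% in label order. With 9 erythroid cells labelled E18 and none labelled E14, these libraries gave no background of their own for the shares. Over all kept cells Igfbp3 stood at 45.0, 4.08 and 5.16 CPM in label order. Endothelial cells, which line vessels, also carried Igfbp3, at 182 CPM (155 to 212) over 26 cells of all libraries. The summed level of 11 endothelial markers was 65.2 CPM in maturing neurons labelled E14, with none at 0, against 27.6 CPM in newborn neurons of the same library, with Pecam1 and Cdh5 at 0. It was 34.3 CPM in maturing neurons labelled E18, with Tek and Tie1 at 0, and 9576 CPM in endothelial cells themselves. The part of endothelial RNA in the Igfbp3 level of neurons was not tested. With the libraries clustered separately, the Igfbp3 difference labelled E18 kept its direction (1.98) but fell under the CPM minimum, and it also did so with at least 2000 genes and at most 5% mitochondrial UMIs per cell (2.44); with 10 CPM added it was 0.93, and that labelled E14 2.31.

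Igfbp2, an abundant binding protein of developing brain and cerebrospinal fluid, was spread over the excitatory lineage. Radial glia labelled E14 had 242 CPM (229 to 255), those labelled E16 215 CPM (211 to 220) and those labelled E18 219 CPM (213 to 224). Intermediate progenitors had 268, 388 and 317 CPM, newborn neurons 176, 302 and 255 CPM, and maturing neurons 320 and 275 CPM in the libraries labelled E14 and E18. None of these steps reached 2-fold. Newborn neurons lay below radial glia in the library labelled E14 (log2 ratio -0.45, -0.56 to -0.34) and above them in those labelled E16 (0.48, 0.41 to 0.56) and E18 (0.22, 0.16 to 0.29), so the sign was not shared. The ranges of intermediate progenitors, maturing neurons, newborn neurons and radial glia overlapped from each class to the next.

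At the medial edge of the cortex Igfbp2 was higher. In the library labelled E16, the 83 cells of choroid plexus epithelium, which secretes cerebrospinal fluid, had 1400 CPM (1345 to 1456), and the 69 cells of the cortical hem had 1048 CPM (988 to 1110). Their log2 ratios to radial glia of that library were 2.69 (2.63 to 2.76) and 2.28 (2.19 to 2.37). The same classes in the library labelled E18, with 40 and 15 cells, had 2438 and 1993 CPM, and too few cells for a ratio. Meningeal fibroblasts of that library, 23 cells, were as high as the hem at 1977 CPM (1832 to 2131), against 547 CPM in the library labelled E16. Cajal-Retzius cells had 494 CPM (455 to 537) and 735 CPM (679 to 794) in the libraries labelled E16 and E18, ratios of 1.2 and 1.74 to radial glia. The first of these was 0.79 with the libraries clustered separately.

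Igfbp5 was also higher in the cortical hem, 90.9 CPM (73.9 to 111), and in Cajal-Retzius cells, 52.5 CPM (40.1 to 67.4) and 45.0 CPM (32.0 to 61.5) in the libraries labelled E16 and E18. The log2 ratio to radial glia was 2.34 (2.03 to 2.64) for the hem and 1.56 and 1.42 for Cajal-Retzius cells. Igfbp2 and Igfbp5 were thus both past 2-fold in each of these classes. In the choroid plexus Igfbp5 had 26.7 CPM (19.6 to 35.5), and its clusters differed: the one led by Sulf1, Ttr and Colec12 (64 cells) had 73.0 CPM (58.6 to 89.8), and the one led by Ttr, Dynlrb2 and Cfap144, with genes of cilia (59 cells), had 5.08 CPM (2.44 to 9.35). Igfbp3 split the same way, at 32.0 CPM (22.7 to 43.7) and 1.02 CPM (0.123 to 3.67). An unnamed cluster of 59 cells led by Fgf17, Fgf8 and Fgf18, 88.1% of them labelled E16, had the highest Igfbp5 level of all clusters with at least 50 cells, 163.6 CPM (132 to 200.0), with Igfbp2 at 1421 CPM.

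Counted over members, 2 of 7 in the choroid plexus (Igfbp2 and Igfbp3, both higher; 30.7% of all genes were past 2-fold) and 2 of 7 in the hem (Igfbp2 and Igfbp5, both higher; 15.3%) differed from radial glia of the library labelled E16. In Cajal-Retzius cells the count was 4 of 7 in the libraries labelled E16 (32.1% of all genes) and E18 (34.4%), with Igfbp2, Igfbp5 and Igfbpl1 higher and Igfbp4 lower. Igfbp4 had 6.88 CPM (2.97 to 13.6) and 2.31 CPM (0.279 to 8.33, from 2 UMIs) there, and its ratio in the library labelled E16 (-1.16) missed 2-fold with 10 CPM added (-0.65) and with the mean over cells of each cell's CPM (-0.91). In the choroid plexus the Igfbp3 ratio (2.38) was 0.98 with 10 CPM added, and with at least 500 genes and at most 20% mitochondrial UMIs per cell it was 1.2 and under the CPM minimum. Igfbp5 in the choroid plexus (0.61) was past 2-fold with at least 2000 genes and at most 5% mitochondrial UMIs per cell (1.69) and with the members among the variable genes (1.56). Igfbp3 in the hem (1.77) and in Cajal-Retzius cells labelled E18 (1.75) was kept from a call by the CPM minimum, and was called at these ratios with a minimum of 1 CPM. Under further settings it was called at 1.81 to 2.51 in the hem and at 1.80 and 2.13 in Cajal-Retzius cells. Between these libraries no member was past 2-fold in Cajal-Retzius cells, where 11.6% of all genes were. Igfbp4 (-1.25, -2.88 to 0.54, E18 over E16) and Igfbp3 (2.09, 0.08 to 3.43) were kept from a call by the CPM minimum, and both were past 2-fold with the mean over cells of each cell's CPM (-1.56 and 2.07).

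Meningeal fibroblasts, the connective tissue cells around the brain, differed most from radial glia, with 6 of 7 members past 2-fold in the library labelled E16 (93 cells; 31.6% of all genes). Igfbp4 had 290 CPM (261 to 322), a log2 ratio of 4.05 (3.87 to 4.23), and Igf2r, Igfbp2 (547 CPM) and Igfbp3 (18.5 CPM) were also higher. Igfbpl1 was lower, at 9.65 CPM (4.98 to 16.9) and a ratio of -5.44 (-6.28 to -4.70), and Igfbp5 was lower at 1.61 CPM (0.195 to 5.81, from 2 UMIs; -2.80, -3.93 to -1.41). Igf1r, at a ratio of -0.84 (-1.2 to -0.51), was the member short of 2-fold. At the coarser Leiden resolution of 0.5, the ratios of Igfbp2 (1.34) and Igfbp5 also missed it, at 0.66 and -0.69. Igfbp4 was also high in vessel cells, at 244 CPM (212 to 278) in endothelial and 172 CPM (140 to 211) in mural cells over all libraries.

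In the GABAergic lineage, the inhibitory neurons and their precursors, values rest on 57, 103 and 72 cells in label order. All genes were past 2-fold between libraries more often here (21.5% to 26.4%) than in the other classes compared (2.67% to 11.6%). For Igfbp2, the cells labelled E14 had 37.6 CPM (20.6 to 63.1), those labelled E16 163 CPM (137 to 192) and those labelled E18 21.3 CPM (9.76 to 40.5). Igfbpl1 had 836, 1557 and 533 CPM in label order. Igfbp4 ran the other way: the cells labelled E14 had 48.4 CPM (28.7 to 76.5), those labelled E16 11.6 CPM (5.58 to 21.4) and those labelled E18 49.8 CPM (30.8 to 76.1). The library labelled E16 was highest in Igfbp2 and Igfbpl1 and lowest in Igfbp4, with no overlap of intervals. Past 2-fold were 2 of 7 members between the libraries labelled E16 and E14 (Igfbp2 and Igfbp4; 26.4% of all genes), 0 of 7 between E18 and E14 (21.5%) and 5 of 7 between E18 and E16 (26.3%), which adds Igfbpl1, Igf1r (149 against 73.3 CPM) and Igf2r (7.11 CPM from 3 UMIs against 24.4; -1.65, -3.47 to -0.08). The Igf2r ratio was -0.50 with at least 500 genes and at most 20% mitochondrial UMIs per cell, and that of Igf1r (1.02) lay between 0.94 and 0.99 under 4 of the alternatives. For E16 over E14, Igfbpl1 was also past 2-fold at resolution 0.5 (1.04) and with that looser filter (1.04). Against radial glia, 5, 2 and 4 of 7 were past 2-fold in label order (37.4%, 26.5% and 41.3% of all genes). Igf2r labelled E14, at -1.04, was among them and missed 2-fold under 7 alternatives (-0.54 to -0.88). Igf2r labelled E18 (-2.04) was -0.74 with at least 500 genes and at most 20% mitochondrial UMIs per cell, and Igfbp4 labelled E14 (1.08) was 0.85 with 10 CPM added. At resolution 0.5, Igfbp2 (-1.13) and Igfbp4 (-1.19) labelled E16 were also past 2-fold, as was Igfbp3 labelled E14 (-1.49) with no doublets removed. With the doublet rate raised 2 times, Igfbp2 (-2.07), Igfbpl1 (-1.51) and Igf1r (1.01) were past 2-fold between E18 and E14. So were Igf2r (-1.26) and Igfbp2 (-1.6) with the members among the variable genes, and Igfbpl1 (-1.01) with the mean over cells of each cell's CPM. The Igfbp2 ratio ran from -2.07 to 0.48 over the alternatives. A cluster of 29 cells mostly labelled E16 is part of this class, the summed level of 10 radial glia markers was 949, 1207 and 600 CPM and that of 10 newborn neuron markers 4788, 2979 and 4923 CPM; their part in the differences was not tested.

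Igfbpl1, a secreted relative of the binding proteins, marked the neuronal branch. Radial glia labelled E14 had 262 CPM (249 to 275), those labelled E16 463 CPM (457 to 469) and those labelled E18 459 CPM (451 to 468). Intermediate progenitors had 2931, 2453 and 2503 CPM, and newborn neurons 4241, 2939 and 3682 CPM. The log2 ratio of newborn neurons to radial glia was 4.01 (3.94 to 4.09), 2.66 (2.63 to 2.69) and 3.00 (2.97 to 3.03), and intermediate progenitors already exceeded radial glia by 3.48, 2.40 and 2.44. With the libraries clustered separately, the ratio of newborn neurons to radial glia labelled E14 was 3.02. Every library thus showed the step, and most of it was present by the intermediate progenitor stage. Maturing neurons had 1423 and 1610 CPM in the libraries labelled E14 and E18, below newborn neurons by log2 ratios of -1.57 (-1.60 to -1.55) and -1.19 (-1.22 to -1.17). The second of these missed 2-fold with the libraries clustered separately (-0.94) and with at least 2000 genes and at most 5% mitochondrial UMIs per cell (-0.66). Cajal-Retzius cells, also young neurons, had 2558 and 2389 CPM in the libraries labelled E16 and E18.

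With 2000 UMIs drawn from each cell, an Igfbpl1 UMI was found in 99.5% of newborn neurons labelled E14 (exact Clopper-Pearson 95% interval 98.7 to 99.8), 97.7% of those labelled E16 (96.1 to 98.8) and 99.7% of those labelled E18 (99.3 to 99.9). Cells with fewer UMIs were left out, 3 to 4 newborn neurons per library. Radial glia gave 27.0%, 46.6% and 42.1%. Endothelial, mural and microglial cells, which should lack the gene, gave 4 of 25 in the library labelled E14 (16%, 4.54 to 36.1), 0 of 39 in that labelled E16 (allowing up to 9.03%) and 0 of 30 in that labelled E18 (up to 11.6%). Erythroid cells gave 6 of 124 in the library labelled E16 (4.84%, 1.8 to 10.2). The shares in newborn neurons lay above this background in every library, and those in radial glia did so in the libraries labelled E16 and E18. In that labelled E14 the interval of radial glia (22.7 to 31.6) lay within that of the background cells. Without drawing, the shares in newborn neurons were 100%, 99.7% and 100%.

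**Figure D3:**
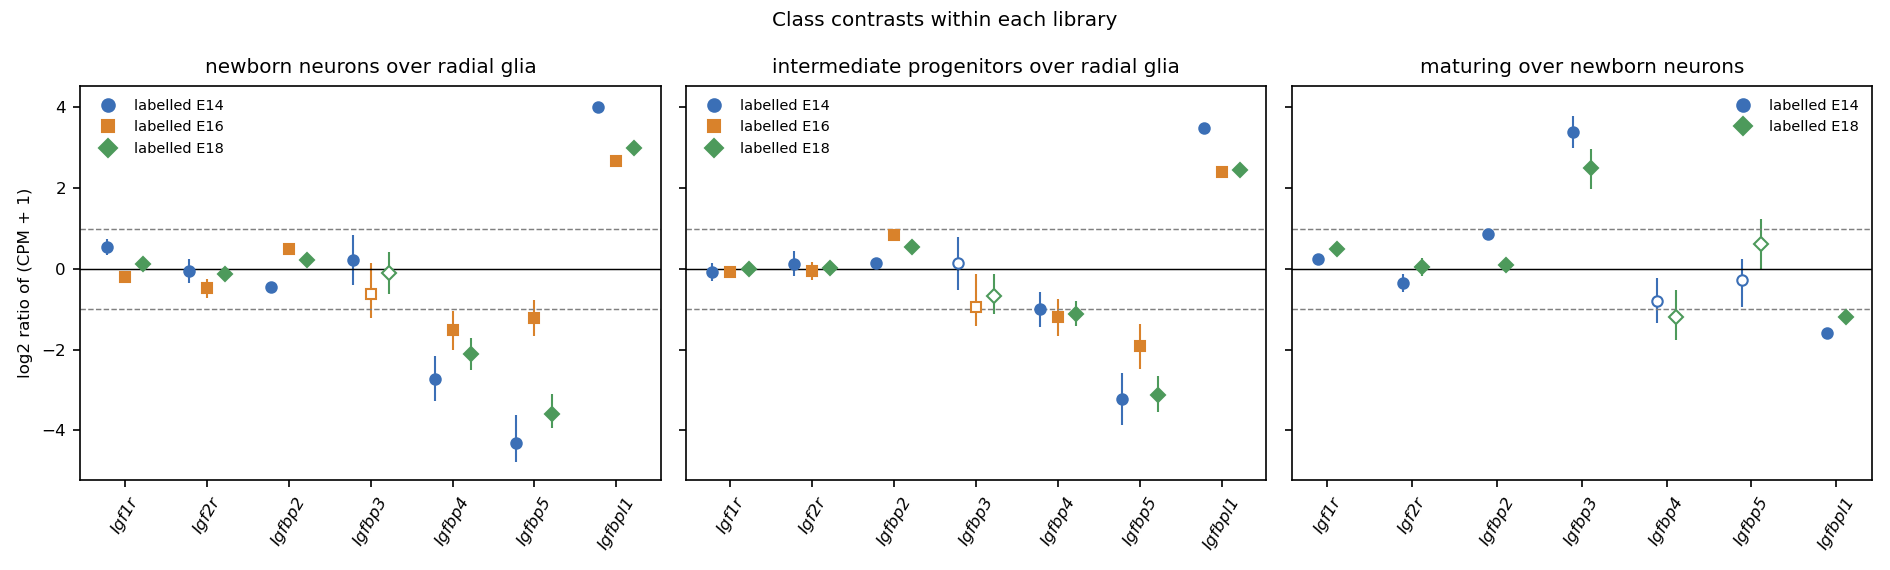
Log2 ratios of CPM + 1 for each member between successive classes within a library (colour), with 95% intervals from the Poisson limits of both sides; dashed lines mark 2-fold and open symbols a mean under 5 CPM. Newborn neurons over radial glia show Igfbpl1 at 2.66 to 4.01 and Igfbp4 and Igfbp5 at -1.21 to -4.30, and maturing over newborn neurons show Igfbp3 at 3.39 and 2.50.

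Over the step from radial glia to newborn neurons, 3 of 7 members were past 2-fold in each library, Igfbpl1 higher and Igfbp4 and Igfbp5 lower. Beside them stood 29.8%, 31.7% and 29.0% of all genes that reached the CPM minimum, in label order. Over the step from newborn to maturing neurons, 2 of 7 were past it in the libraries labelled E14 (12.5% of all genes) and E18 (11.7%), Igfbp3 higher and Igfbpl1 lower. From radial glia to intermediate progenitors the counts were 2, 3 and 3 of 7 in label order (13.2%, 12.7% and 11.7% of all genes). Igfbpl1 was higher and Igfbp5 lower in all 3 libraries, and Igfbp4 was lower in those labelled E16 and E18 (-1.2 and -1.11) and stood at the 2-fold line in that labelled E14 (-1.0). Under the alternatives the Igfbp4 ratio labelled E14 ran from -1.21 to -0.12 and was past 2-fold under several of them. With 10 CPM added, the Igfbp4 ratios labelled E16 and E18 were -0.68 and -0.61 and the Igfbp5 ratio labelled E16 was -0.97. The Igfbp4 ratio labelled E16 was -0.93 with the libraries clustered separately and -0.999 with the doublet rate raised 2 times. The members' median log2 ratio for newborn neurons over radial glia, among the 7, 6 and 6 at the CPM minimum, was -0.05, -0.35 and -0.01, beside -0.12, -0.06 and -0.08 over all genes.

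The 3 comparisons between libraries share libraries with each other, and their values are given side by side. In radial glia none of 7 was past 2-fold between the libraries labelled E16 and E14 (9.80% of all genes were), E18 and E14 (4.31%) or E18 and E16 (2.67%). The same count of 0 was found in newborn neurons (10.3%, 3.44% and 5.94% of all genes) and in intermediate progenitors (10.4%, 3.18% and 3.40%). Of the 7 members, 4 in newborn neurons and 5 in intermediate progenitors reached the CPM minimum. Nearly all newborn neurons labelled E16 and E14 came from different clusters, and no comparison within shared clusters was made for this class. With at least 2000 genes and at most 5% mitochondrial UMIs per cell, however, 5 ratios of intermediate progenitors were past 2-fold: Igf1r (1.21), Igf2r (1.05) and Igfbp4 (-1.54) for E16 over E14, and Igf1r (1.22) and Igfbp4 (-1.61) for E18 over E14. Igfbp3 in radial glia, with log2 ratios of -1.05 (E16 over E14) and -1.25 (E18 over E14), was kept from a call by the minimum of 5 CPM. So was Igfbp3 in newborn neurons (-1.88 and -1.58) and in intermediate progenitors (-2.14 and -2.05), so that in all 3 classes its level was highest in the library labelled E14. The levels labelled E14 rest on 27, 39 and 27 UMIs in radial glia, newborn neurons and intermediate progenitors. That library has no erythroid cells to set a background for them. The minimum also kept back Igfbp5 in intermediate progenitors (-1.29, E18 over E16) and in newborn neurons (2.33 between the libraries labelled E16 and E14, and -2.47 between those labelled E18 and E16). Below 2-fold, Igfbp5 in radial glia was lower in the libraries labelled E16 (-0.76, -0.99 to -0.53) and E18 (-0.84, -1.09 to -0.59) than in that labelled E14. Igfbpl1 in radial glia was higher in both than in that labelled E14, by 0.82 (0.75 to 0.90) and 0.81 (0.73 to 0.89), but with the libraries clustered separately these ratios were -0.19 and 0.07.

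The radial glia of the libraries came partly from different clusters, so a comparison within shared clusters was added after the data were seen. In clusters 4 and 6, which held 391 cells labelled E14 and 1379 labelled E18, the log2 ratio of E18 to E14 was 0.90 (0.73 to 1.07) for Igf1r, -0.87 (-1.12 to -0.60) for Igfbp5 and 0.60 (0.52 to 0.68) for Igfbpl1, each with the sign it had over all radial glia. In clusters 0, 5 and 12, with 383 cells labelled E18 and 2259 labelled E16, Igf1r was lower in the library labelled E18 (-0.60, -0.77 to -0.43) and Igfbpl1 higher (0.58, 0.52 to 0.63), whereas over all radial glia of these libraries the ratios were -0.05 and -0.01. Igfbp4 and Igfbp5 had ratios of -0.04 (-0.38 to 0.29) and -0.08 (-0.44 to 0.26) there.

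**Figure D4:**
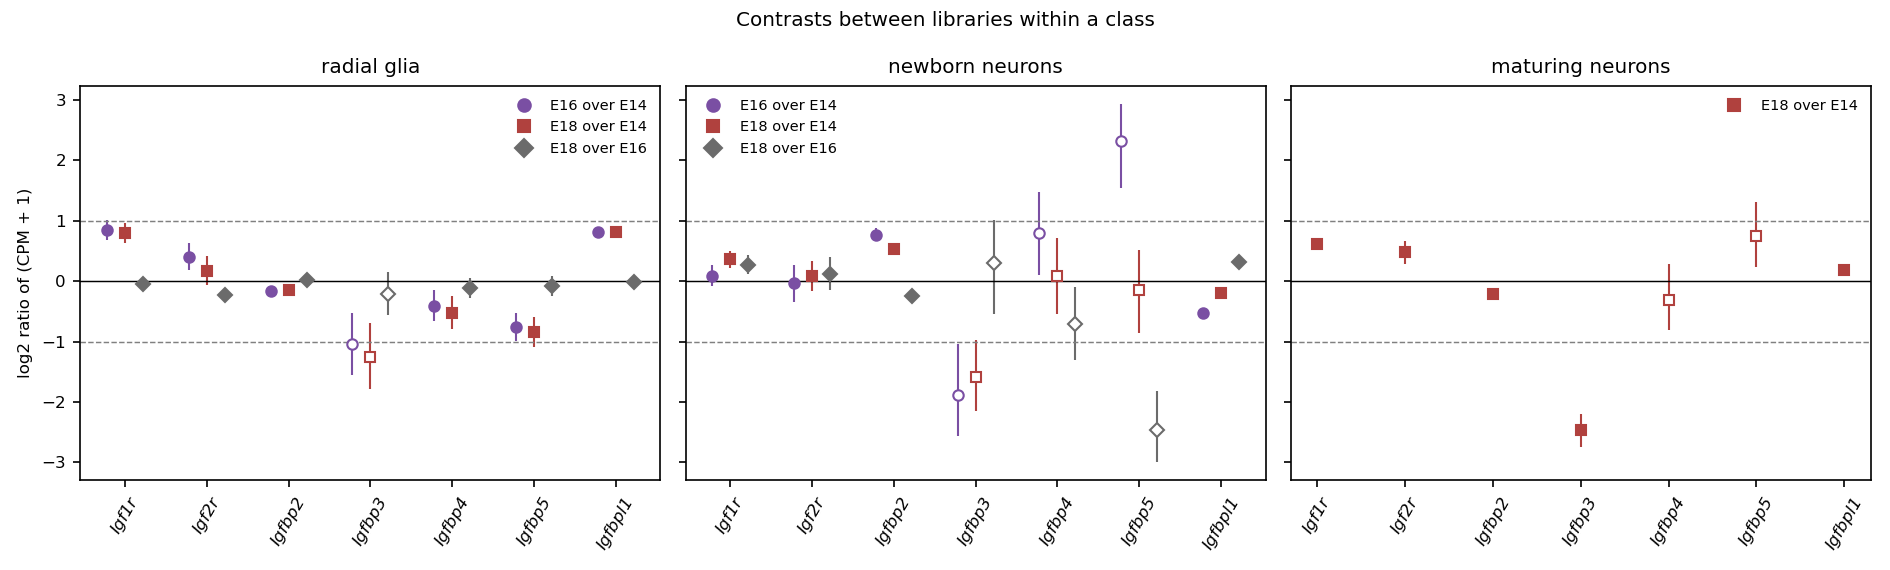
Log2 ratios of CPM + 1 for each member between pairs of libraries within radial glia, newborn neurons and maturing neurons, with 95% intervals; dashed lines mark 2-fold and open symbols a mean under 5 CPM. Igfbp3 in maturing neurons (-2.47, E18 over E14) is the filled symbol beyond the lines, and the filled symbols of radial glia and newborn neurons lie within them.

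The other genes of the pathway came from a list of 46 ligands, receptors, binding proteins, proteases, adapters and signalling enzymes, all present in the files. From radial glia to newborn neurons, 30, 30 and 29 of them reached the CPM minimum in label order, and 4, 5 and 5 were higher and 4, 2 and 3 lower past 2-fold, beside 29.8%, 31.7% and 29.0% of all genes. The adapter Grb10, an inhibitor of insulin and Igf1 receptor signalling, was lower in newborn neurons of the libraries labelled E16 (-2.90) and E18 (-4.11), and the transcription factor Foxo3, which Akt keeps out of the nucleus, was higher in those labelled E14 (2.25) and E18 (2.04). The protease Pappa, which cuts Igfbp4 and Igfbp5, was lower in newborn neurons of the library labelled E16 (2.48 against 13.4 CPM, -2.05). From newborn to maturing neurons, 26 reached the minimum in both libraries, with 2 and 1 higher and 2 and 2 lower, near the 12.5% and 11.7% of all genes. The adapter Grb14 was higher by 3.04 and 3.17 in the libraries labelled E14 and E18, and Foxo3 lower by ratios of -1.77 and -1.64.

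Between libraries in radial glia, 3 pathway genes were higher and 3 lower (E16 over E14, of 31; 9.80% of all genes), 2 and 3 (E18 over E14, of 32; 4.31%) and 0 and 1 (E18 over E16, of 30; 2.67%). Grb10 was higher in the libraries labelled E16 (3.41) and E18 (2.80) than in that labelled E14, Igfbp7, a low-affinity binding protein, was lower (-3.11 and -2.61), and the protease Htra1 was lower (-3.85 and -1.37). Pappa had 1.71, 13.4 and 5.28 CPM in label order. Igfbp2, Igfbp4 and Igfbp5 thus stayed within 2-fold between libraries in radial glia under the main settings, while Igfbp7, at 13.8, 0.716 and 1.43 CPM, did not. Igfbp5 was past it for E18 over E14 (-1.07) with at least 2000 genes and at most 5% mitochondrial UMIs per cell. Igfbp3 (-1.05 and -1.25) was kept from a call by the CPM minimum.

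The ligands were scarce in the excitatory lineage. Igf1 stood at no more than 0.572 CPM in radial glia, intermediate progenitors, newborn and maturing neurons, and Igf2 at no more than 1.09 CPM. In the GABAergic lineage Igf1 had 32.3 CPM in the library labelled E14 (12 UMIs), 2.33 CPM in that labelled E16 and 0 in that labelled E18. Choroid plexus epithelium had 5.12 CPM of Igf1 and 6.26 CPM of Igf2, and Cajal-Retzius cells labelled E18 had 10.4 CPM of Igf2 (9 UMIs). Meningeal fibroblasts of the library labelled E16 had 330 CPM of Igf1 and 353 CPM of Igf2, against 0.347 and 0.781 CPM in radial glia, and 9 of 33 pathway genes at the minimum were higher and 1 lower there, a share near the 31.6% of all genes. The cells with the highest ligand levels among these were thus also those with the highest Igf2r and Igfbp4 levels among classes of at least 50 cells.

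Over the 20 sums of a class in a library with at least 50 cells, without unnamed cells and the 131 excitatory neurons that were not placed, the genes most like each member were found by Pearson's r of log2(CPM + 1), given as a description since the sums share libraries and depth. For Igfbpl1 they were Elavl2 (0.95), Bicd1 (0.95) and Ccdc88c (0.94), and for Igfbp5 Bcar3 (0.96), LOC102556108 (0.94) and Fam204a (0.89). Igfbp4 was most like Iqsec1 (0.84), Fbln2 (0.84) and Frmd6 (0.81), and Igfbp3 most like Scarb1 (0.83), Tmem219 (0.81) and Fkbp1b (0.80). Igfbp2 was followed by Styx (0.91), RGD1306502 (0.91) and Vasp (0.90). Igf1r was closest to Oip5-as1 (0.97), Wtap (0.96) and Huwe1 (0.96), and Igf2r to P4hb, Rpl22l1 and Fam76a (0.94 each). The sum of erythroid cells had the lowest Igf1r (4.40 CPM) and Igf2r (2.20 CPM) of all 20. The part of this sum in the values of r was not tested. Among the members themselves r ran from -0.48 for Igfbp4 with Igfbpl1 to 0.84 for Igf2r with Igfbp2.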

How the data were processed

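Single-cell libraries were made with the 10x Genomics 3′ kit, version 3.1, per the labels' protocols. The deposited matrices hold raw UMI counts per gene and barcode, made by the authors with Cell Ranger 6.0.1 on build mRatBN7.2 per the submitters' processing notes. Multimapping and strand settings are not given in the sources used here. All else was computed from these counts with scanpy 1.11.5 and scipy 1.17.1. Cells with at least 1000 genes and at most 10% mitochondrial UMIs were kept, and cells with the highest Scrublet scores were taken out (0.8% for each 1000 cells: 158, 216 and 259); Scrublet's own threshold marked 0.0385% in the library labelled E16 and so did not work there. Counts were scaled to 10000 per cell, and 2000 variable genes, without the members, pathway, stage, mitochondrial, haemoglobin, ribosomal and sex-linked genes, gave 30 principal components, 15 neighbours and Leiden clusters at resolution 1. A cluster took the name of the class whose listed markers stood out most, with at least 3 of them raised 1.2-fold and detected in 20% of its cells; this scoring rule was settled after the clusters were seen, so a difference from another study's classes may come from these rebuilt names. Unnamed clusters held 4, 318 and 43 cells in label order.

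UMIs were summed per class and library as CPM, and ratios used log2(CPM + 1), with intervals joined from the Poisson limits of both sides. Intervals cover counting error only. The ratio and the 2-fold call, but not the interval, were tested on simulated counts. Members were all named; the 3 genes most like each by Pearson's r, and for the pathway list at most the 4 largest ratios in a comparison, were named by rule. The members, gene lists and tests were chosen with earlier results of these data known. Alternatives were the Leiden resolution (0.5 and 2), stricter and looser cell filters, doublet removal (none or at 2 times the rate), clustering each library alone, variable genes with the members, the CPM added (10), the CPM minimum (1 and 20), the mean over cells of each cell's CPM, totals without mitochondrial, haemoglobin and ribosomal protein genes, and the UMIs drawn per cell (1000 or none). Promoters are RefSeq's, matched by symbol for all 7 members.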

Additional observations from a re-analysis of the deposited data

Results flagged for a closer look

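Barcodes outside the cell filter, which entered no comparison, also carried UMIs of the 7 members: 10225 in the library labelled E14, 2779 in that labelled E16 and 3442 in that labelled E18, each above the 3 UMIs that a count of 0 allows. These came from 2656, 1514 and 1247 barcodes with 6298545, 4045373 and 3096068 UMIs in all.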

How the results depend on the processing

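No paired analysis was possible because each label has 1 library. Among 77 log2 ratios of newborn over radial glia, maturing over newborn, and radial glia or newborn neurons between libraries, none of the 13 past 2-fold changed sign under any alternative that gave a value. The same alternatives were run, chosen after the data were seen, on the 133 ratios of the other classes, where 45 were past 2-fold: none changed sign, 37 stayed past it with 10 CPM added, 30 with a minimum of 20 CPM, and at least 40 of 43 or 45 under the others, except that the stricter filter gave a value for only 11, which all stayed. Ratios that came past 2-fold numbered 8 with a minimum of 1 CPM, 6 with the stricter filter, 5 with the doublet rate raised 2 times, 5 with the mean over cells of each cell's CPM, 4 at resolution 0.5, 4 with the members among the variable genes, and 0 to 3 under the others. The count of members past 2-fold from radial glia to newborn neurons was 9 of 21 member-library pairs and became 3 with a minimum of 20 CPM, which removes Igfbp4 and Igfbp5 by its construction; from newborn to maturing neurons it was 4 of 14 and became 0 of 7 with at least 2000 genes and at most 5% mitochondrial UMIs (leaving 322, 3554 and 2617 cells in label order, and the library labelled E18 alone) and 2 of 14 with each library clustered on its own. Between libraries in radial glia it was 0 of 21 and became 1 at resolution 0.5 (Igfbpl1, E18 over E14, 1.04), 2 with the stricter filter (Igfbp5, -1.07, and Igfbpl1, 1.14, both E18 over E14), 2 with no doublets removed and 2 with a minimum of 1 CPM (both Igfbp3). In newborn neurons it was 0 of 21 and became 1 at resolution 2 (Igfbp3), 2 with at least 500 genes and at most 20% mitochondrial UMIs (Igfbp3), 1 with each library clustered on its own (Igfbp2, E16 over E14, 1.03) and 4 with a minimum of 1 CPM (Igfbp3 and Igfbp5). The share of newborn neurons with an Igfbpl1 UMI, 99.5%, 97.7% and 99.7%, moved beyond its interval in the library labelled E14 at resolution 2 (98.1%), with the looser filter (98.3%) and with the doublet rate raised 2 times (98.6%). It was 100% in those labelled E16 and E18 with the stricter filter, 100%, 99.7% and 100% with no UMIs drawn, and 96.9%, 93.7% and 97.3% at 1000 UMIs. The cause of these changes was not tested.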
